A study of Mus musculus with 6 samples.

Results

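The proteins of the cytosolic ribosome are encoded by genes named Rpl for the large subunit and Rps for the small subunit, and their promoters were examined for called regions of the transcription factors GATA4 and GATA6. Members were taken by symbol from the protein-coding genes of the mm10 GENCODE annotation: Rpl or Rps followed by a digit, together with Rplp0, Rplp1, Rplp2 and Rpsa, without pseudogenes and without the Rps6k kinases. This gave 86 of 21938 protein-coding genes. Of these, 77 encode subunits of the standard ribosome, 46 in the large and 31 in the small subunit. The other 9 are Rpl10l, Rpl22l1, Rpl36al, Rpl39l, Rpl3l, Rpl7l1, Rps27l and Rps27rt, which are paralogues of a subunit by symbol, and Rps19bp1, whose product binds a ribosomal protein.

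CUT&RUN, in which a nuclease tethered by an antibody releases the DNA around a bound protein, was performed for GATA4 and for GATA6 in untreated mouse extra-embryonic endoderm (XEN) cells. There were 3 libraries per factor, each from 500000 cells, with 1 list of called regions per library and 1 combined list per factor. By their labels all 6 come from the XEN line 3F2, whereas the study's methods name 3F6 as well and fewer replicates, so p-values measure a spread between libraries that may be technical. Both lines carry a doxycycline-inducible reprogramming cassette at Col1a1, the M2rtTA activator at Rosa26 and an Oct4-GFP reporter, and both groups share these alleles. No IgG library entered the calls. The labels state 30000000 reads per library, and the depth left after filtering is unknown. The lists held between 42446 and 49597 regions. Region lists carry no expression levels, so the cell type was taken from the labels.

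Ribosomes are built from equal amounts of nearly all of these proteins, and cells keep their output balanced. The genes are among the most strongly transcribed in dividing cells. Their promoters are typically rich in CpG and often lack a TATA box, transcription starts in a run of pyrimidines, and binding motifs of the ETS class, YY1 and SP factors are common there. GATA4 and GATA6 are zinc finger factors of the primitive endoderm lineage, from which XEN cells derive. Both recognise the motif called WGATAR, which is GATA with an A or T before it and an A or G after it, on either strand.

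The promoters below were chosen to show both ends of the data: Rpl13a and Rps24 had a region in every library, Rpl12 and Rpl36a are standard subunits with none, Rps27 had regions of GATA4 only, and Rpl10 had a GATA motif in its combined region. Each is the RefSeq promoter in GRCm38.p6, 280 bases read 5′ to 3′ in the direction of transcription and beginning 250 bases before the transcription start site (TSS). Capitals mark matches on either strand to WGATAR, to the ETS class motif CCGGAAG, to the YY1 class motif AAGATGGC, to the SP class motif GGGCGG or to the TATA box letters TATAAA. Rpl13a lies on the minus strand at chr7:45128716-45128995, Rps24 on the plus strand at chr14:24490503-24490782, Rpl10 on the plus strand at chrX:74270566-74270845, Rpl12 on the plus strand at chr2:32961462-32961741, Rpl36a on the plus strand at chrX:134585404-134585683 and Rps27 on the minus strand at chr3:90213619-90213898.
Rpl13a: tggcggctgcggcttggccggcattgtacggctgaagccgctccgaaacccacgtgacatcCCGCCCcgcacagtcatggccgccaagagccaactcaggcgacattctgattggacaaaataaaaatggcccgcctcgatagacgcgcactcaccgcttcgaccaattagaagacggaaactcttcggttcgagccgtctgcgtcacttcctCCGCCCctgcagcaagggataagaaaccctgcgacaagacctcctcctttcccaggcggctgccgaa
Rps24: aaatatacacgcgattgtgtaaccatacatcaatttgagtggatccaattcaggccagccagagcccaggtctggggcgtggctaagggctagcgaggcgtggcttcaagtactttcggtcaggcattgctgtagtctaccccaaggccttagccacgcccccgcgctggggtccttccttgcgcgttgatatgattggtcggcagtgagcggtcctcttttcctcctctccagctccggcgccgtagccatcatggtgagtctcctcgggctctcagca
Rpl10: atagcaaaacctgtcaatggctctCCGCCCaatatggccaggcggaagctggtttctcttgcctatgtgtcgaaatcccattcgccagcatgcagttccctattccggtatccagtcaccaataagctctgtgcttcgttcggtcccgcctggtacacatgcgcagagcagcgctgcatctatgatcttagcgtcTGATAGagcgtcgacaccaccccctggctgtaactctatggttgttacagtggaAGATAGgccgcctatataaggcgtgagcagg
Rpl12: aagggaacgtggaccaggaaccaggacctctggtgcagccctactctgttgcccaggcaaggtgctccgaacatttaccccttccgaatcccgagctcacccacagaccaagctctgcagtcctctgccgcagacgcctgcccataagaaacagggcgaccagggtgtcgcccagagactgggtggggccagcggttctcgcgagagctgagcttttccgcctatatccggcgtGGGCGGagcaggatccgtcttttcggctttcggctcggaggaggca
Rpl36a: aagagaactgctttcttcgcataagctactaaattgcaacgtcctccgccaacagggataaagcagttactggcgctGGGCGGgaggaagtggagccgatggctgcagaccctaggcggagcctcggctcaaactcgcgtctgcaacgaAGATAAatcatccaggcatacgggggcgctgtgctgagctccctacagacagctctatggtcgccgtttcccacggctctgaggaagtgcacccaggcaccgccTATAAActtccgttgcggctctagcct
Rps27: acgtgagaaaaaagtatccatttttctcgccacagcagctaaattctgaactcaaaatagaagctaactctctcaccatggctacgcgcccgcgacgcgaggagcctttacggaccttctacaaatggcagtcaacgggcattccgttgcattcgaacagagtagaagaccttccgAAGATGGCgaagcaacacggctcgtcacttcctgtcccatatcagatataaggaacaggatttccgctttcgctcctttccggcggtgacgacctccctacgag

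Of the promoters with a region in all 6 libraries, neither the printed Rpl13a nor the printed Rps24 sequence holds WGATAR, whereas Rpl36a, which had no region, holds AGATAA at -101 to -96 from the TSS (the TSS being position 0). Rpl10 holds TGATAG at -55 to -50 and AGATAG at -1 to 4. Rps27 holds the YY1 class motif at -74 to -67. These matches are letters in the sequence and not bound sites. RefSeq promoters were matched for 66 of the 86 members, 78 promoters of 300 bases in all, and the same motifs were counted in 20072 promoters of other genes. WGATAR was found in 20.5% of the member promoters and 25.4% of the others. The ETS class motif was found in 34.6% against 11.8%, the YY1 class motif in 10.3% against 3.08%, the SP class motif in 60.3% against 47.7%, TATAAA in 8.97% against 12.2% and a run of at least 5 C or T starting within 5 bp of the TSS in 42.3% against 26.4%. Members with and without WGATAR both had a median of 3 libraries with a region, and the same medians were found for the ETS and SP class motifs and the pyrimidine run. Members with the YY1 class motif, only 6 genes, had a median of 3.5 libraries against 3 without it. Those with TATAAA, only 7 genes, had a median of 2 against 3. Neither difference was tested. Among those not matched were Rpl17, Rpl21, Rpl23a, Rpl29, Rpl3, Rpl30, Rpl32, Rpl36, Rpl7, Rpl8, Rplp1, Rps14, Rps20, Rps27a and Rps29.

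Most ribosomal protein promoters had a called region somewhere in the series, and few had one everywhere. A gene was counted when the midpoint of a region lay within 1 kb of any of its annotated TSSs. At least 1 of the 6 libraries had such a region at 79 of 86 members (91.9%), against 57.4% of other protein-coding genes and 80.9% of those with a CpG-island-like promoter, a class set by GC and CpG content as given further on. All 6 libraries had one at 8 members (9.30%), against 11.7% of the others and 19.3% of the CpG-island-like others. Members that are CpG-island-like themselves were called in at least 1 library in 94.0% and in all 6 in 11.9% of cases. Between these ends, 10 members had a region in 1 library, 17 in 2, 19 in 3, 14 in 4 and 11 in 5, so that 50 members had one in 2, 3 or 4 libraries. Other genes were spread differently, with 42.6% in no library and only 7.29% in exactly 3.

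**Figure D1:**
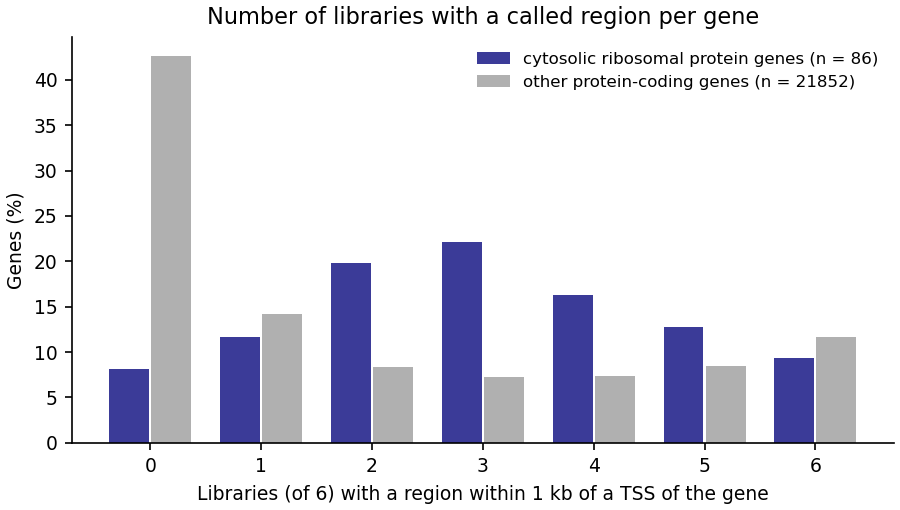
Share of genes (%, y axis) by the number of libraries, of 6, with a called region within 1 kb of a TSS (x axis), for the 86 ribosomal protein genes and the 21852 other protein-coding genes. The ribosomal protein genes peak at 3 libraries (22.1%), whereas the other genes peak at 0 (42.6%) and rise again at 6 (11.7%).

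In single libraries the share of ribosomal protein genes with a region was above that of all other genes, and was above or below that of other genes with a CpG-island-like promoter depending on the library. GATA4 replicates 1, 2 and 3 had a region at 43, 55 and 49 members, or 50%, 63.95% and 56.98%. The other protein-coding genes were called at 35.3%, 34.1% and 34.1% in the same libraries. GATA6 replicates 1, 2 and 3 had a region at 30, 35 and 48 members, or 34.9%, 40.7% and 55.8%, against 30.8%, 29.3% and 31.2% of the others. Members were thus called more often than other genes in every library, and their share, which rests on 86 genes, varied more between replicates of a factor than that of the other genes. The within-library difference was 17.9 ± 9.55 percentage points (SD, n = 6), positive in 6 of 6 libraries (two-sided exact sign-flip permutation p = 0.03125, the smallest that 6 libraries can give; 0.0417 after Benjamini-Hochberg adjustment over the 4 within-library differences tested). It ranged from 4.09 points in GATA6 replicate 1 to 29.8 points in GATA4 replicate 2.

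CpG content moved with this difference. A promoter was called CpG-island-like when its GC content was at least 50% and its observed to expected CpG ratio at least 0.6, which held for 67 members (77.9%) and 43.9% of other genes. The median ratio was 0.829 in members and 0.556 in others, while GC content was nearly equal, at 55.7% and 56.0%. Among other genes, those with a CpG-island-like promoter were called at 45.5% to 55.4% per library. Against them the members differed by -5.41, 10.3 and 3.18 points in GATA4 replicates 1 to 3 and by -12.5, -4.77 and 7.70 points in GATA6 replicates 1 to 3. The mean was -0.246 ± 8.75 points (SD, n = 6; 3 libraries higher and 3 lower; exact sign-flip permutation p = 1.0), so the excess over other genes was not kept. Members with a CpG-island-like promoter differed from the same class of other genes by 4.09 ± 9.61 points, from -10.05 in GATA6 replicate 1 to 16.5 in GATA4 replicate 2, which did not pass (exact sign-flip permutation p = 0.375, n = 6; a comparison chosen after seeing the data). Within the members, the 67 CpG-island-like genes had regions in a median of 3 libraries, and the other 19 in a median of 2. The members also had more annotated TSSs (median 6 against 3 per gene), and 19 members (22.1%) had a TSS of another gene in the window, against 14.6% of others.

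The number of ribosomal protein genes with a region was 49 ± 6 in the GATA4 and 37.7 ± 9.29 in the GATA6 libraries (SD, n = 3 each). The difference of 11.3 genes did not pass against the spread between replicates (two-sided exact permutation p = 0.2; 3 against 3 libraries cannot go below 0.1). GATA6 replicate 3, with 48 members, lay among the GATA4 values. Gene by gene, 38 members (44.2%) had a region in more GATA4 than GATA6 libraries, 13 (15.1%) in fewer and 35 (40.7%) in equally many. Among other genes these shares were 22.9%, 14.5% and 62.6%, the last including the 42.6% with no region at all, against 8.14% of members. The shares of members and other genes thus rest on unlike numbers of genes with any region. The GATA4 lists were also longer, at 46646 to 49597 regions against 42446 to 46484 for GATA6. With all lists cut to the shortest, members were called at 42, 53 and 47 genes in GATA4 and 30, 35 and 48 in GATA6 replicates 1 to 3.

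**Figure D2:**
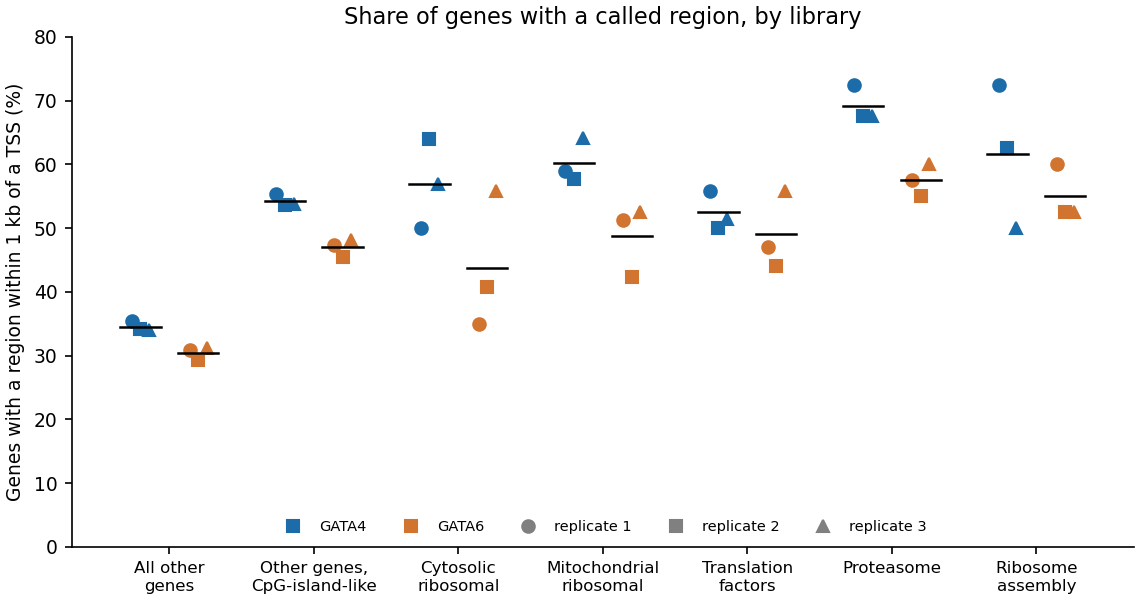
Share of genes with a called region within 1 kb of a TSS (%, y axis) in each of the 6 libraries (points; bars give the mean of 3 libraries per factor) for ribosomal protein genes and the comparison groups named on the x axis. Ribosomal protein genes span 34.9% to 63.95%, overlapping CpG-island-like other genes (45.5% to 55.4%) and lying above all other genes (29.3% to 35.3%) except that GATA6 replicate 1, at 34.9%, is level with the highest of them.

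Other gene groups of protein synthesis and turnover were counted in the same way. The range over the 6 libraries was 42.3% to 64.1% for 78 mitochondrial ribosomal protein genes, 44.1% to 55.9% for 68 initiation and elongation factor genes, 50% to 72.5% for 40 ribosome assembly genes and 55% to 72.5% for 40 proteasome genes. The last group, which encodes subunits of the protease that degrades ubiquitinated proteins, does not belong to the ribosome. These ranges overlap that of the ribosomal protein genes. Within each library the proteasome share was the higher one, as with 67.5% against 63.95% in GATA4 replicate 2 and 57.5% against 34.9% in GATA6 replicate 1. The other lists lay above the ribosomal protein genes in some libraries and below in others. A region in all 6 libraries was found at 30% of proteasome, 15.4% of mitochondrial ribosomal, 20.6% of factor and 17.5% of assembly genes, against 9.30% of members. No difference between the lists was tested.

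The combined list of a factor holds the regions that all 3 of its replicates shared. The GATA4 combined list had a region at 22 of 86 members (25.6%; exact binomial 95% interval 16.8 to 36.1, counting error only), against 19.2% of other genes and 32.2% of CpG-island-like other genes. The GATA6 list had one at 9 members (10.5%; 4.90 to 18.9), against 13.6% and 22.1%. This order depended on which libraries had to share a region. Without GATA6 replicate 1 the shared regions were at 16 members (18.6% against 17.5% of other genes), and without GATA6 replicate 2 at 20 (23.3% against 18.4%). Members then lay above the others. Without GATA6 replicate 3 the shared regions were at 12 members (13.95% against 17.4%). Leaving out a library also relaxes the rule from 3 libraries to 2, and these changes cannot be told apart. Regions in at least 2 of the 3 GATA6 libraries were at 31 members (36.0% against 26.1%). For GATA4 the members lay above the other genes whichever library was left out, at up to 35 members (40.7% against 22.8%) without GATA4 replicate 1. Both lists had one at 8 members (9.30%), against 10.2% of other genes. By subunit, the GATA4 list held 11 of 46 large and 10 of 31 small subunit genes and the GATA6 list 5 and 4. Of the members with a region in any GATA4 library, 30.1% were in the GATA4 combined list, against 39.5% of such other genes. For GATA6 these shares were 13.6% and 28.8%.

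A region at a ribosomal protein promoter was less often in the combined list than a region at another promoter, in a comparison chosen after seeing the data. Of the regions at ribosomal protein promoters, 46.8%, 37.5% and 43.4% in GATA4 replicates 1, 2 and 3 lay in the combined list of that factor, against 46.9%, 49.4% and 48.2% of the regions at other promoters. In the GATA6 libraries the shares were 31.2%, 26.3% and 18.4%, against 38.6%, 41.5% and 38.5%. The difference was -9.91 ± 7.29 percentage points (SD, n = 6) and negative in 6 of 6 libraries (exact sign-flip permutation p = 0.03125, unadjusted), though in GATA4 replicate 1 it was only -0.107. Restricted to CpG-island-like promoters in both groups it was -8.15 points (exact sign-flip permutation p = 0.0625, n = 6). Replicates of a factor share 1 combined list, so the 6 values are not independent. Neither p-value takes this into account.

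Where all 6 libraries had a region, the signal varied widely from gene to gene. Total signal, the fragment pileup summed over the base pairs of a region, is not scaled for depth, so it is given as the percentile of the region within the list of its own library. Rpl13a, a large subunit protein, was high throughout, at percentiles 97.9, 82.7 and 97.5 in GATA4 and 90.1, 94.5 and 85.6 in GATA6 replicates 1 to 3. Its GATA4 combined region covered chr7:45128664-45129574 and its GATA6 combined region chr7:45128581-45129400, both across the TSS. Rps24, a small subunit protein, lay at 78.2, 92.7 and 59.6 in GATA4 and at 81.3, 93.3 and 97.5 in GATA6, the lowest value falling in GATA4 replicate 3.

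Rpl27, a large subunit protein, ranged from 54.9 in GATA4 replicate 3 to 96.1 in GATA6 replicate 1. Rps12 lay at 94.8, 86.5 and 93.2 in GATA4 and at 63.4, 36.0 and 64.2 in GATA6 replicates 1 to 3. Percentiles of different lists rest on different libraries, and the factors were not tested against each other at this gene. Rpl7a ranged from 92.6 in GATA6 replicate 1 down to 1.39 in GATA6 replicate 2, nearly the whole scale. Its GATA4 and GATA6 combined regions also had a TSS of Med22 within 1 kb, and over the alternatives Rpl7a had a region in 2 to 6 libraries. Among these 5 genes a region in every library went with a mean percentile anywhere from 59.97 (Rpl7a) to 91.4 (Rpl13a).

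**Figure D3:**
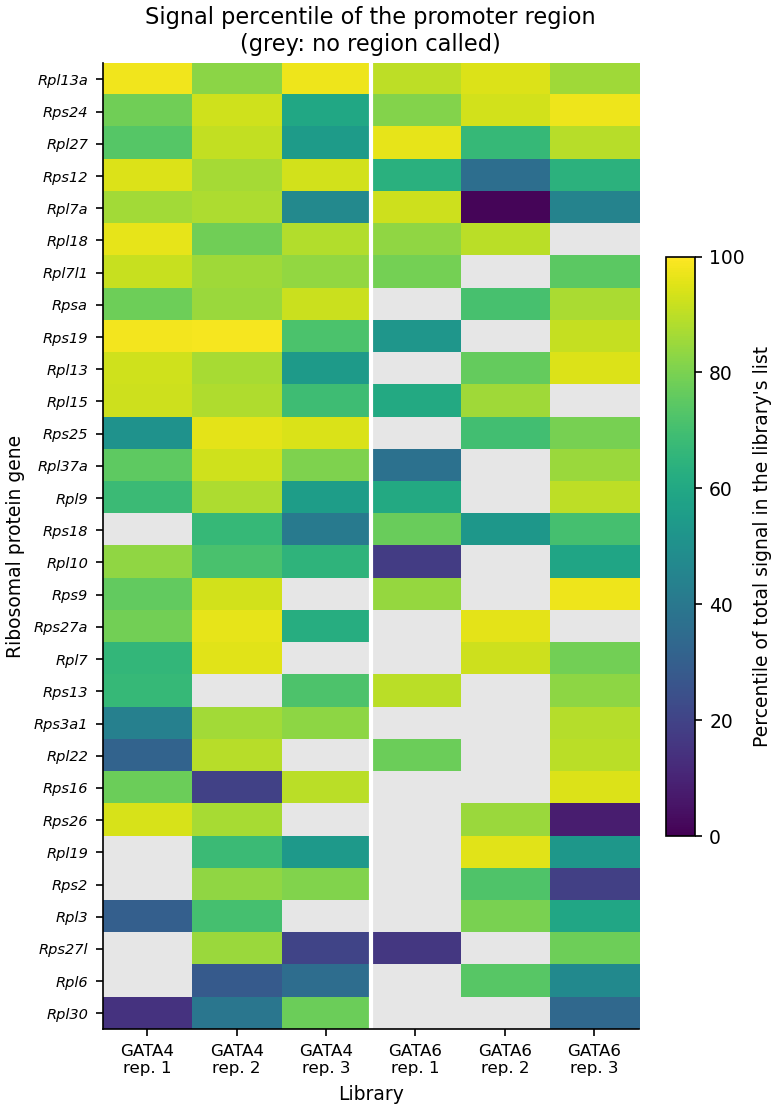
Percentile of total signal within the list of each library (colour, 0 to 100; grey where no region was called) for 30 of the 33 ribosomal protein genes with a region in at least 4 of the 6 libraries (rows), with GATA4 libraries left and GATA6 libraries right of the white line. Rows are ordered by the number of libraries and then by mean percentile, and within most rows values differ widely between replicates of 1 factor, as for Rpl7a.

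Over all promoter regions, those of ribosomal protein genes ranked above the others in some libraries and below them in others. Their median percentile was 70.8, 79.1 and 61.9 in the GATA4 libraries, against 76.2, 75.7 and 75.7 for regions at other promoters. In the GATA6 libraries it was 77.3, 71.7 and 78.7, against 75.2, 73.9 and 74.7. The difference of -1.97 ± 6.80 was negative in 3 and positive in 3 libraries (exact sign-flip permutation p = 0.59375, n = 6). Pileups were shallow: the maximum signal, the highest fragment pileup in a region, was between 2 and 15 at members, and 37.5% to 48.4% of their regions did not exceed 5 fragments, against 41.0% to 50.6% of other promoter regions.

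A pair of members (2.33%) had a combined region of 1 factor and no region in any library of the other, against 0.714% of other genes, and 2 genes are too few to set these shares apart. Rpl36, a large subunit protein, had a GATA6 combined region at chr17:56613053-56613596, across its TSS, with percentiles of 89.8, 95.5 and 94.4 and maximum signals of 7, 11 and 11. No GATA4 library had a region midpoint within 1 kb, but when any base of a region inside the window was enough, 5 of 6 libraries had one, so that its absence from GATA4 depends on the window. Rps27, a small subunit protein, had a GATA4 combined region at chr3:90213415-90214318, with percentiles of 39.2, 87.6 and 75.7 and maximum signals of 4, 6 and 5. This window also holds a TSS of Rab13, a small GTPase gene, and when each region was given only to the nearest TSS, Rps27 kept a region in 1 library. In all, 7 of the 22 GATA4 and 1 of the 9 GATA6 combined regions at members had a TSS of another protein-coding gene within 1 kb.

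The stalk proteins recruit elongation factors to the large subunit, and their genes were called in 2 or 3 libraries each, near the member median of 3. Rplp0 had regions in GATA4 replicates 1 and 2, at percentiles 47.4 and 87.6, and in no GATA6 library. Rplp1 had one in GATA4 replicate 2 at 85.3 and in GATA6 replicates 1 and 2 at 93.7 and 38.2. Rplp2 had one in GATA4 replicate 1 at 92.7 and in GATA6 replicates 1 and 3 at 37.5 and 86.5. None of the stalk genes had a combined region, as was the case for most members. Rpsa, the small subunit protein also known as the laminin receptor, had regions in 5 libraries, at 77.8, 84.9 and 92.2 in GATA4 and 70.9 and 87.5 in GATA6 replicates 2 and 3, and had a GATA4 combined region at chr9:120127383-120128049.

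No library had a region at 7 members, of which 5 are among the 9 paralogues and other genes. At least 1 library had a region at 4 of these 9 (44.4%; exact binomial 95% interval 13.7 to 78.8), against 57.4% of other protein-coding genes. So few genes cannot be set apart from that share. The 5 without a region were Rpl10l, Rpl39l and Rpl3l, paralogues that other tissues, such as testis or muscle, are known to express, and Rps19bp1 and Rps27rt. Whether expression bears on a missing region was not tested. The nearest region midpoint to a TSS of Rpl3l lay 1.64 to 3.65 kb away over the 6 libraries, and that of Rpl10l 15.8 to 126.8 kb away. Rpl12 and Rpl36a were the standard subunits without a region, and both are large subunit proteins. For Rpl12 the nearest region midpoint was 11.5 to 32.3 kb from a TSS, and for Rpl36a, on the X chromosome, 13.97 to 277.7 kb. All 31 standard small subunit genes had a region in at least 1 library, as did 44 of the 46 large subunit genes. Among the paralogues that were called, Rpl7l1 had regions in 5 libraries, at 91.7, 85.8 and 83.8 in GATA4 and 79.3 and 75.0 in GATA6 replicates 1 and 3, and was the only one of the 9 with a combined region (GATA4). Rps27l was called in 4 libraries, Rpl36al in 3 and Rpl22l1 in 2, both of the last in GATA4.

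GATA motifs were less frequent in regions at ribosomal protein promoters than in regions at other promoters. WGATAR within 100 bp of the region midpoint was found in 5 of 47, 7 of 64 and 4 of 53 member regions in the GATA4 libraries (10.6%, 10.9% and 7.55%), against 20.05%, 20.6% and 21.1% of other promoter regions. In the GATA6 libraries it was found in 2 of 32, 6 of 38 and 5 of 49 (6.25%, 15.8% and 10.2%), against 18.7%, 18.0% and 18.4%. Members were below the other promoters in 6 of 6 libraries, with a difference of -9.24 ± 3.97 percentage points (SD, n = 6; exact sign-flip permutation p = 0.03125, adjusted 0.0417). The direction was kept against regions at CpG-island-like other promoters, at -6.83 points, without passing the threshold (exact sign-flip permutation p = 0.0625, n = 6). With CpG-island-like promoters in both groups, a comparison chosen after seeing the data, it was -7.46 points and passed (exact sign-flip permutation p = 0.03125, n = 6, unadjusted), and with GATAA in place of WGATAR it was -4.22 points (p = 0.156).

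Among the combined regions at members, 2 of 22 for GATA4 held WGATAR near their midpoint (9.09%; 95% interval 1.12 to 29.2), against 17.6% of 3812 other promoter regions, and 0 of 9 for GATA6, which allows a share of up to 33.3% when 3 counts are taken as the limit of a count of 0, against 15.2% of 2676. So few regions cannot show a difference. The GATA4 region of Rps27a, which encodes ubiquitin fused to a small subunit protein, covered chr11:29547673-29548697 and shares its window with Clhc1. That of Rpl10, which encodes a large subunit protein at the join of the subunits, covered chrX:74270036-74270804, upstream of the TSS, and was the only 1 of the 31 combined regions at members that did not cover a TSS. This region also holds the TGATAG at -55 to -50 of the promoter printed above, which lies more than 100 bp from the region midpoint. The motif near the midpoint is shown in capitals as the reverse complement of TGATAG. It lies in the following 30 bases of the plus strand at chrX:74270312-74270341 in GRCm38.p6, upstream of the promoter sequence printed above.
Rpl10 region: gcaatcaagcacCTATCAtggtgctctttg
Rpl10 had regions in 5 libraries, at percentiles 83.3, 71.2 and 65.1 in GATA4 and 17.7 and 58.8 in GATA6 replicates 1 and 3, and had no GATA6 combined region. In GATA4 replicate 1 the region belonging to the combined region lay at 77.3. The value of 83.3 is that of another region of this library, with its maximum 53 bp past a TSS.

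The position of maximum signal lay closer to the TSS at ribosomal protein genes. The distance was taken from the TSS of the gene that lay nearest the region midpoint. Its median was 46, 71 and 64 bp in the GATA4 libraries, against 113, 106 and 116 bp at other promoters. In the GATA6 libraries it was 95, 82.5 and 65 bp, against 108, 102 and 101 bp. The difference was -37.1 ± 20.1 bp (SD, n = 6) and negative in 6 of 6 libraries (exact sign-flip permutation p = 0.03125, adjusted 0.0417). With 1 TSS per gene, which removes the larger number of TSSs of the members, it was -16.2 bp and did not pass (exact sign-flip permutation p = 0.09375, n = 6). Most maxima lay upstream of the TSS, at 69.8% to 78.1% of member regions and 70.1% to 71.0% of the others.

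**Figure D4:**
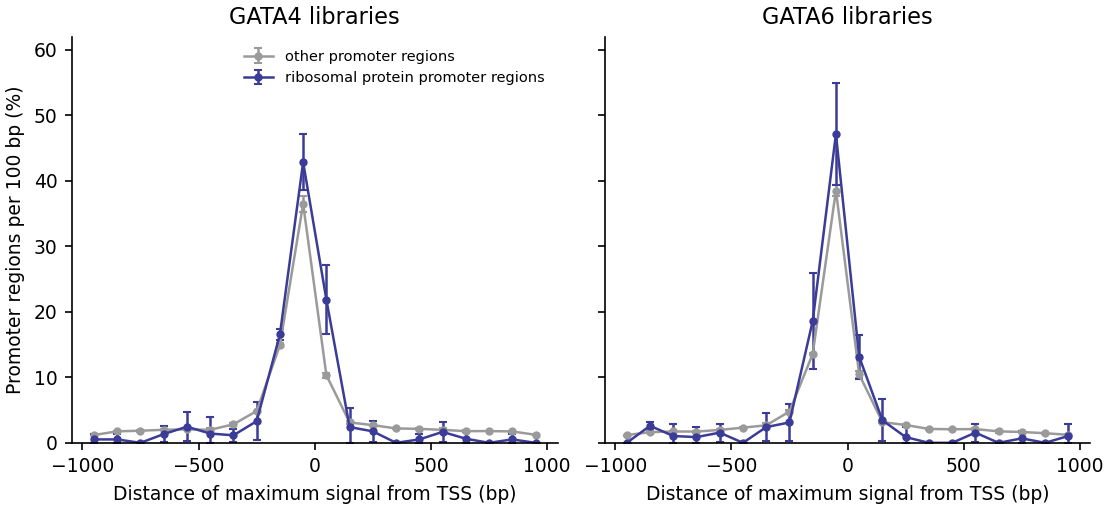
Share of promoter regions per 100 bp (%, y axis) by the distance of their maximum signal from the TSS of the gene nearest the region midpoint (bp, negative upstream, x axis), as mean ± SD of 3 libraries per factor, for ribosomal protein and other promoters. Error bars are cut at 0, both groups peak in the 100 bp upstream of the TSS, and in the 100 bp on either side of it the mean of the ribosomal protein regions is the higher one.

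Pseudogenes of ribosomal protein genes, mostly retrocopies that resemble their transcripts but lack their promoters, were looked at for comparison. Of 294 pseudogenes with such a symbol, 9 (3.06%) were overlapped by a region in any library and 0 in all 6. Among 13229 other pseudogenes these numbers were 1094 (8.27%) and 54. The median length was 459.5 bp in the first group and 655 bp in the second, and the part of length and of the authors' filter on mapping quality in these counts was not tested.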

How the data were processed

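GATA4 and GATA6 CUT&RUN libraries (3 each) were grouped by their titles. Per the labels and the study's methods, the authors aligned reads to mm10 with Bowtie2 2.3.4.1, removed duplicates (Picard), reads of mapping quality under 20 and mitochondrial and blacklisted regions (SAMtools, bedtools), and called regions per library with SEACR 1.3 at a numeric threshold without normalization. The deposited lists hold positions with a total and a maximum signal, unscaled for depth. The combined lists hold positions only, and rebuilding them from the 3 libraries gave the deposited lists for both factors.

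Regions were assigned to a gene when their midpoint lay within 1 kb of any TSS of GENCODE release M 21 protein-coding transcripts, and sequence came from GRCm38.p6. Each library was its own control: members were compared with the 21852 other protein-coding genes by two-sided exact sign-flip permutation over the 6 libraries, and factors by exact permutation of 3 against 3 libraries. No test was made over genes. Signal was ranked only within a list. Genes were named by rule: the 8 highest mean percentiles among members in all 6 libraries, members with a combined region of 1 factor and no region of the other, members with no region, members with WGATAR in a combined region, the stalk genes with Rpsa, and the paralogues. Some genes that this rule names are not reported here. The members and lists were chosen with earlier results of these data known. Alternatives were other TSS sets, windows, overlap rules, list lengths, backgrounds, motifs and leaving out each library. Matching and tests were checked on simulated lists. The software was scipy 1.17.1 with numpy 2.4.6, pandas 2.3.3 and matplotlib 3.10.9 under Python 3.11.15.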

Additional observations from a re-analysis of the deposited data

How the results depend on the processing

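Of 319 values recomputed under an alternative, 252 were counted as kept, and 166 of these lay outside the main results. Among the main results, 86 values kept their direction and their side of the threshold. A further 35 were weaker, 4 were reversed and 5 changed in another way. The excess of members with a region over other genes became -0.246 points (exact sign-flip permutation p = 1.0) against CpG-island-like other genes. By the same exact test it was 4.09 points (p = 0.375) with CpG-island-like members and background and 1.54 points (p = 0.656) with 1 TSS per gene and that background, both chosen after seeing the data. The difference in signal percentile turned to 2.53 with a 2.5 kb window and to 2.45 by maximum signal, and ranged from -3.17 to 0.383 with 1 library left out, the positive value being without GATA4 replicate 3. The motif difference no longer passed with 1 TSS per gene (-6.35), the nearest TSS only (-7.76), CpG-island-like background (-6.83) or GATAA (-4.22), nor the distance to the TSS with 1 TSS per gene (-16.2 bp) or a 500 bp window (-16.8 bp). The share of regions in the combined list, itself chosen after seeing the data, gave -4.31 points with a 2.5 kb window, -7.61 with any base in the window and -8.15 with CpG-island-like promoters in both groups. In these settings GATA4 replicate 1 was positive, at 6.98, 1.93 and 1.37 points. GATA4 replicate 3 was also positive with the 2.5 kb window (0.177), so a negative difference in 6 of 6 libraries was not kept. The cause of these shifts was not tested. Without 1 library, 5 remain and the sign-flip p cannot go below 0.0625, so no call could be kept: the differences then ranged from 15.5 to 20.7 points for the share, -10.6 to -8.38 points for the motif, -41.9 to -31.1 bp for the distance and -11.9 to -7.86 points for the share in the combined list.

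Combined regions in at least 2 of 3 libraries, in place of all 3, were found at 49 members for GATA4 (56.98% against 31.1% of other genes) and 31 for GATA6 (36.0% against 26.1%), which for GATA6 turned the difference from the other genes from -3.09 to 9.95 points. With 1 library left out, the counts ranged from 27 to 35 for GATA4, the highest without GATA4 replicate 1, and from 12 to 20 for GATA6, the highest without GATA6 replicate 2 and 16 without GATA6 replicate 1. The differences from other genes were then 8.02 to 17.9 points for GATA4 and -3.43 to 4.82 points for GATA6, positive without GATA6 replicate 1 (1.14) or 2 (4.82). Over the alternatives Rpl7a had a region in 2 to 6 libraries, Rpl36 in 3 to 6 and Rps27 in 1 to 3, while Rpl13a, Rps24 and Rpl27 had one in 6 throughout. With the replicate number as a replicate block, GATA4 and GATA6 differed by 11.3 genes (exact sign-flip permutation p = 0.25, the smallest that 3 pairs can give). Libraries of the same number did not deviate together (correlations of -0.00310, 0.00405 and -0.0113), so the block pairs them by number only. The numeric threshold sets how many regions a list holds, no IgG control entered, and depth after filtering is unknown, so a missing region does not show that a promoter is unbound.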
